A study of Capra hircus with 90 samples.

Results

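POLR2I, POLR2L and GTF2H5 encode small proteins of the machinery that transcribes protein-coding genes, and their transcript levels are described here in 3 brainstem sites of goats that breathed CO2. The genes were selected on the authors' deposited table for the nucleus of the solitary tract (NTS) after 24 h of CO2, where all 3 are listed as lower. That table gives symbols, and each symbol was joined to its Ensembl row of the count table by its mean abundance. POLR2I is ENSCHIG00000011961, POLR2L is ENSCHIG00000023006 and GTF2H5 is ENSCHIG00000000966. They are 3 of 25144 genes in the count table and 3 of the 238 genes that could be given a symbol. All 3 passed the filter on low counts in every comparison.

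RNA polymerase II makes messenger RNA, and it starts at a promoter together with general transcription factors. POLR2I is a subunit of RNA polymerase II alone and is known in yeast for its part in start site choice and elongation. POLR2L is a small subunit that RNA polymerases I, II and III all carry, so it also belongs to the enzymes that make ribosomal and transfer RNA. GTF2H5 is the smallest subunit of TFIIH, the factor that opens promoter DNA and also opens DNA around damage in nucleotide excision repair, and in humans its loss destabilises TFIIH and causes a form of trichothiodystrophy. These genes are active in every nucleated cell and mark no cell type.

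Bulk RNA-seq was made from frozen punches of the brainstem of adult outbred female goats, with 5 exposures of 6 goats each. In the first batch of extraction and sequencing, goats breathed 6% CO2 for 3 h or 6% CO2 for 24 h, or were kept in room air for 24 h as the baseline of both. In the second batch, goats breathed 6% CO2 for 7 d or were kept in room air for 7 d. Punches were taken at 3 distances rostral to the obex: at 0 to 2 mm for the NTS, at 2 to 4 mm for the ventral respiratory column, called VRC, and at 8 to 10 mm for the retrotrapezoid nucleus, called RTN. This gives 15 groups of 6 libraries. The groups carry no transgene or drug, and a punch holds all cell types of its site, so fewer cells of a type and less RNA per cell cannot be told apart. For the 3 h goats the room-air baseline is of another length, 24 h. Exposures of 24 h or less and of 7 d were extracted and sequenced apart, so differences are fitted and tested only within a batch. Orders over all 15 groups mix the batches and are given without a test.

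Library totals lay between 5.46 M and 36.8 M counts, and 2 of 90 libraries had fewer than 10 M. Raw counts behind the values were 307 to 2182 per library for POLR2I, 343 to 2889 for POLR2L and 212 to 1635 for GTF2H5. Levels are given as CPM, the counts scaled to library size with trimmed-mean (TMM) factors. CPM is not per length, so levels are compared between groups for 1 gene and not between genes. In the first-batch NTS, 5 libraries stood apart on the first principal component (36.1% of the variance): number 5 of 24 h CO2, numbers 5 and 6 of 3 h CO2 and numbers 5 and 6 of room air. Their PC1 scores were 10.8 to 58.3, against -28.7 to -7.0 in the other NTS libraries of that batch. NTS values are therefore given with and without them.

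In the NTS after 24 h of CO2 each of the 3 transcripts had its lowest group mean of the 15 groups. POLR2I had 36 to 51.2 CPM with a median of 38.5 CPM in the 24 h CO2 libraries, against 48.7 to 91.2 CPM with a median of 55.9 CPM in room air. Its means were 40.3 ± 5.85 CPM after CO2 and 60.3 ± 15.7 CPM in room air (SD, n = 6 each). The CO2 libraries lay below every room-air library in 5 of 6 cases, and CO2 library 5 was the one inside the room-air range. The fitted difference was -0.57 on the log2 scale, or 0.672 of the room-air level.

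POLR2L had the widest gap of the 3 on the log2 scale. It had 31.8 to 65.7 CPM with a median of 36.9 CPM after 24 h of CO2, against 64.1 to 122.0 CPM with a median of 67.0 CPM in room air. The means were 41.2 ± 13.1 CPM after CO2 and 75.7 ± 22.8 CPM in room air (SD, n = 6 each), a log2 difference of -0.87 or 0.547 of the room-air level. Again 5 of 6 CO2 libraries lay below all room-air libraries, and CO2 library 5, at 65.7 CPM, was alone in overlapping them. GTF2H5 had 24.5 to 39.2 CPM with a median of 29.7 CPM after CO2, against 38.5 to 77.2 CPM with a median of 42.9 CPM in room air. Its means were 30.2 ± 5.71 CPM after CO2 and 47.7 ± 14.7 CPM in room air (SD, n = 6 each), a log2 difference of -0.65 or 0.635 of the room-air level. For GTF2H5 the overlapping library was CO2 library 1, and library 5, at 32.8 CPM, lay below all of room air.

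These NTS libraries chose the genes, so their values are a description and carry no test here. In the authors' deposited table the log2 differences were -0.58 for POLR2I, -0.88 for POLR2L and -0.66 for GTF2H5, with deposited FDR values of 0.0152, 0.0152 and 0.0227. That table lists 180 genes, 25 higher and 155 lower, which makes the lower entries 0.874% of the genes in the fit that gave its values. The authors' deposited table ends at an FDR of 0.0499 and at an absolute log2 difference of 0.501, so by size of the difference POLR2I is the member nearest to its edge, and by FDR it is GTF2H5. By size of fall, POLR2L stands at place 38, GTF2H5 at 92 and POLR2I at 127 of the 155 lower entries, whose median in the authors' deposited table is -0.69. With edgeR's quasi-likelihood test on the site's own libraries, 0 of 15605 genes passed an adjusted p of 0.05 in this comparison (0.0%), while 1591 had an unadjusted p under 0.05 and DESeq2 called 187. The median log2 difference of all genes was 0.01, and that of the 3 genes was -0.65.

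The room-air side of this comparison held 1 library that was far above the rest. Room-air library 6 had 91.2 CPM of POLR2I, 122.0 CPM of POLR2L and 77.2 CPM of GTF2H5, while the other 5 room-air libraries reached at most 58.6, 69.3 and 45.1 CPM. Without it the 24 h differences were -0.41 for POLR2I, -0.68 for POLR2L and -0.46 for GTF2H5. Without the 5 libraries that stood apart they were -0.50, -0.85 and -0.49. These 5 also hold CO2 library 5, the highest of its group in POLR2I and POLR2L, which moved the differences the other way. Without CO2 library 5 alone they were -0.67, -1.06 and -0.69. Room-air library 6 was also the highest of its group in the ribosomal protein gene RPS28 (160.4 CPM, against 57.2 to 78.3 CPM in the others). It was the lowest in COX1, the cytochrome c oxidase subunit encoded by mitochondrial DNA (83.4 CPM, against 262.4 to 554.2 CPM).

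After 3 h in the NTS the medians lay between those of room air and those of 24 h. POLR2I had 42.1 to 54.9 CPM with a median of 47.0 CPM after 3 h of CO2, against the room-air median of 55.9 CPM. POLR2L had 39.6 to 73.2 CPM with a median of 59.4 CPM, against 67.0 CPM in room air, and GTF2H5 had 28.8 to 48.8 CPM with a median of 34.1 CPM, against 42.9 CPM. In each gene 4 of 6 libraries of 3 h lay below all of room air. The log2 differences were -0.35, -0.38 and -0.37, with 0 of 15605 genes called (0.0%), 1053 at an unadjusted p under 0.05 and 13 called by DESeq2. They share the room-air libraries that chose the genes and are not tested. This gap depended on room-air library 6: without it the differences were -0.18, -0.19 and -0.17. Without the 5 libraries apart they were -0.27, -0.33 and -0.28. A fit that took the replicate number as a block called 3 of 15605 genes (0.0192%).

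Levels of other transcripts in the same NTS libraries are given beside these values, without a test. COX1 had 129.7 to 1629.2 CPM with a median of 1109.1 CPM after 24 h of CO2, against 83.4 to 554.2 CPM with a median of 323.0 CPM in room air. Of 6 neuronal markers only PRPH, an intermediate filament of neurons with peripheral axons, had a symbol, with 1.9 to 35.5 CPM and a median of 3.03 CPM after 24 h of CO2, against 3.58 to 569.6 CPM and a median of 5.05 CPM in room air. The high PRPH values of room air were those of libraries 5 and 6, at 214.0 and 569.6 CPM, and the other 4 had 3.58 to 5.8 CPM. Library 6 was highest both in PRPH and in the 3 genes. Library 5 was not: its 53.5 CPM of POLR2I, 68.5 CPM of POLR2L and 42.2 CPM of GTF2H5 lay within the range of the other room-air libraries. OLIG1 and OLIG2, 2 of 6 oligodendrocyte markers, summed to 24.7 to 106.5 CPM after CO2, against 28.4 to 65.6 CPM in room air. AIF1 and CD14, 2 of 6 myeloid markers, summed to 35.8 to 86.6 CPM after CO2, against 62.2 to 116.5 CPM in room air. ACVRL1 and NOS3, 2 of 6 endothelial markers, summed to 25.4 to 60.8 CPM after CO2, against 23.4 to 36.5 CPM in room air. TTR, 1 of 3 choroid plexus and ependymal markers, had 0.761 to 35.2 CPM after CO2, against 1.04 to 3.64 CPM in room air, and HBQ1 with HEMGN, 2 of 5 blood markers, summed to 8.14 to 19.2 CPM after CO2, against 11.9 to 25.2 CPM in room air. None of the marker values and sums given here was at 0 in a library of these groups, which does not show it for each gene of a sum. Of the astrocyte markers, 0 of 4 had a symbol. The labelled sites could not be checked against their defining genes. The part of cell make-up or RNA quality in the NTS levels was not tested.

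After 7 d in the NTS the 3 genes had means above those of room air, and none passed the test over all genes. POLR2I had 53.8 to 64.4 CPM with a median of 59.3 CPM after 7 d of CO2, against 45.1 to 56.7 CPM with a median of 49.2 CPM in 7 d room air. In 5 of 6 CO2 libraries POLR2I lay above every room-air library, and its means were 59.2 ± 3.37 CPM after CO2 and 49.3 ± 4.29 CPM in room air (SD, n = 6 each). The log2 difference was 0.26 (SE 0.08, 95% interval 0.09 to 0.44), with an unadjusted p of 0.00533 and an adjusted p of 0.448 by edgeR's quasi-likelihood test, which misses the threshold. Of 15311 genes, 1 was called (0.00653%) and 1228 had an unadjusted p under 0.05. DESeq2 called 70.

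POLR2L had 46.0 to 79.4 CPM with a median of 63.8 CPM after 7 d of CO2, against 46.0 to 80.4 CPM with a median of 49.4 CPM in room air. The groups overlapped over their whole range only through room-air library 3, at 80.4 CPM, as the other room-air libraries reached 55.8 CPM. The log2 difference of POLR2L was 0.21 (95% interval -0.13 to 0.54, edgeR adjusted p = 0.741). Without room-air library 3 it was 0.35 (edgeR adjusted p = 0.285), and leaving out each library in turn gave 0.13 to 0.35. GTF2H5 had 39.3 to 53.2 CPM after CO2, against 31.0 to 54.4 CPM in room air, a log2 difference of 0.10 (95% interval -0.16 to 0.37, edgeR adjusted p = 0.831). The 24 h and 7 d effects were not tested against each other, since the 24 h libraries chose the genes.

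In the VRC, which holds the respiratory rhythm generator, the 3 genes had higher means after 24 h of CO2 than in room air, and none passed the test. GTF2H5 had 38.7 to 51.3 CPM with a median of 46.3 CPM after CO2, against 27.6 to 44.0 CPM with a median of 36 CPM in room air. Its means were 46.2 ± 4.5 CPM after CO2 and 36.3 ± 6.63 CPM in room air (SD, n = 6 each), and 5 of 6 CO2 libraries lay above all of room air. The log2 difference was 0.38 (SE 0.19, 95% interval -0.01 to 0.77), with an unadjusted p of 0.0547 and an edgeR adjusted p of 0.399. POLR2I had 50.6 to 58.4 CPM after CO2, against 37.8 to 57.9 CPM in room air, a log2 difference of 0.26 (95% interval -0.03 to 0.54, edgeR adjusted p = 0.441). POLR2L had 62.6 to 82.1 CPM after CO2, against 36.3 to 85.9 CPM in room air, a log2 difference of 0.26 (95% interval -0.16 to 0.69, edgeR adjusted p = 0.634). For all 3 genes each of the 6 CO2 libraries lay above the room-air median.

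The spread was narrower after 24 h of CO2 at this site, which was not tested. On the log2 scale the SD of POLR2I was 0.08 after 24 h of CO2 and 0.25 in VRC room air. That of POLR2L was 0.17 after CO2 and 0.49 in room air, and that of GTF2H5 was 0.14 after CO2 and 0.27 in room air. After 3 h of CO2 the SD was 0.35 for POLR2I, 0.45 for POLR2L and 0.55 for GTF2H5. Of 15424 genes, 126 were called in this comparison (0.817%), 14 higher and 112 lower, and the members were not among them. The VRC room-air libraries also held 96.5 to 147.4 CPM of OLIG1 and OLIG2, against 21.5 to 45.4 CPM in the libraries of 24 h CO2, and 326.2 to 1410.1 CPM of COX1, against 217.2 to 389.8 CPM after CO2. The other marker sums of the VRC overlapped between these groups, and the part of these differences in the 3 genes' levels was not tested.

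In the VRC no difference of the 3 genes passed the test at 3 h or at 7 d. After 3 h the log2 differences were 0.12 for POLR2I, 0.15 for POLR2L and 0.21 for GTF2H5, with 95% intervals of -0.16 to 0.40, -0.27 to 0.58 and -0.18 to 0.60, and edgeR adjusted p-values of 0.745, 0.785 and 0.650. GTF2H5 then ranged from 21.9 to 70.9 CPM, its widest group in the first batch. At 3 h 2 of 15424 genes were called (0.013%). After 7 d the differences were 0.04, -0.12 and 0.03, with intervals of -0.18 to 0.26, -0.50 to 0.25 and -0.22 to 0.28, and edgeR adjusted p-values of 0.941, 0.898 and 0.965. At 7 d 0 of 15179 genes were called (0.0%), with 996 at an unadjusted p under 0.05 and 0 called by DESeq2.

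In the RTN, a site that senses CO2, the fitted differences of the 3 genes lay between -0.07 and 0.14 on the log2 scale after 3 h and 24 h, and none passed the test. After 24 h of CO2 POLR2I had 46.7 to 59.7 CPM, against 44.1 to 63.7 CPM in room air, a log2 difference of 0.01 (95% interval -0.26 to 0.27, edgeR adjusted p = 0.994). POLR2L had 54.8 to 72.6 CPM after CO2, against 50.7 to 90.4 CPM in room air (log2 difference -0.04, 95% interval -0.34 to 0.26, edgeR adjusted p = 0.985). GTF2H5 had 32.7 to 58.3 CPM after CO2, against 37.3 to 61.2 CPM in room air (log2 difference -0.07, 95% interval -0.37 to 0.23, edgeR adjusted p = 0.969). No gene of 15479 was called (0 genes, 0.0%), with 1001 at an unadjusted p under 0.05 and 11 called by DESeq2. After 3 h the differences were 0.00, 0.14 and -0.01, with intervals of -0.26 to 0.27, -0.16 to 0.45 and -0.30 to 0.29, and 2 of 15479 genes were called (0.0129%). The edgeR adjusted p-values were 0.997, 0.889 and 0.996.

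After 7 d the RTN means were lower in CO2 goats, and this rested on 1 room-air library. POLR2L had 34.8 to 53.4 CPM with a median of 39.0 CPM after CO2, against 36.8 to 139.5 CPM with a median of 48.4 CPM in room air, and its means were 42.1 ± 8.42 CPM and 60.4 ± 39.2 CPM in that order (SD, n = 6 each). The log2 difference was -0.52 (SE 0.30, 95% interval -1.18 to 0.13, edgeR adjusted p = 0.999). POLR2I differed by -0.16 (95% interval -0.59 to 0.28) and GTF2H5 by -0.20 (95% interval -0.60 to 0.20), both with an edgeR adjusted p of 0.999. Room-air library 6 held 87.4 CPM of POLR2I, 139.5 CPM of POLR2L and 70.1 CPM of GTF2H5, and the next highest room-air libraries held 52.0, 52.1 and 49.3 CPM. Without it the differences were 0.09 for POLR2I, -0.08 for POLR2L and 0.00086 for GTF2H5. Of 15326 genes 0 were called (0.0%), with 499 at an unadjusted p under 0.05 and 4 called by DESeq2.

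**Figure D1:**
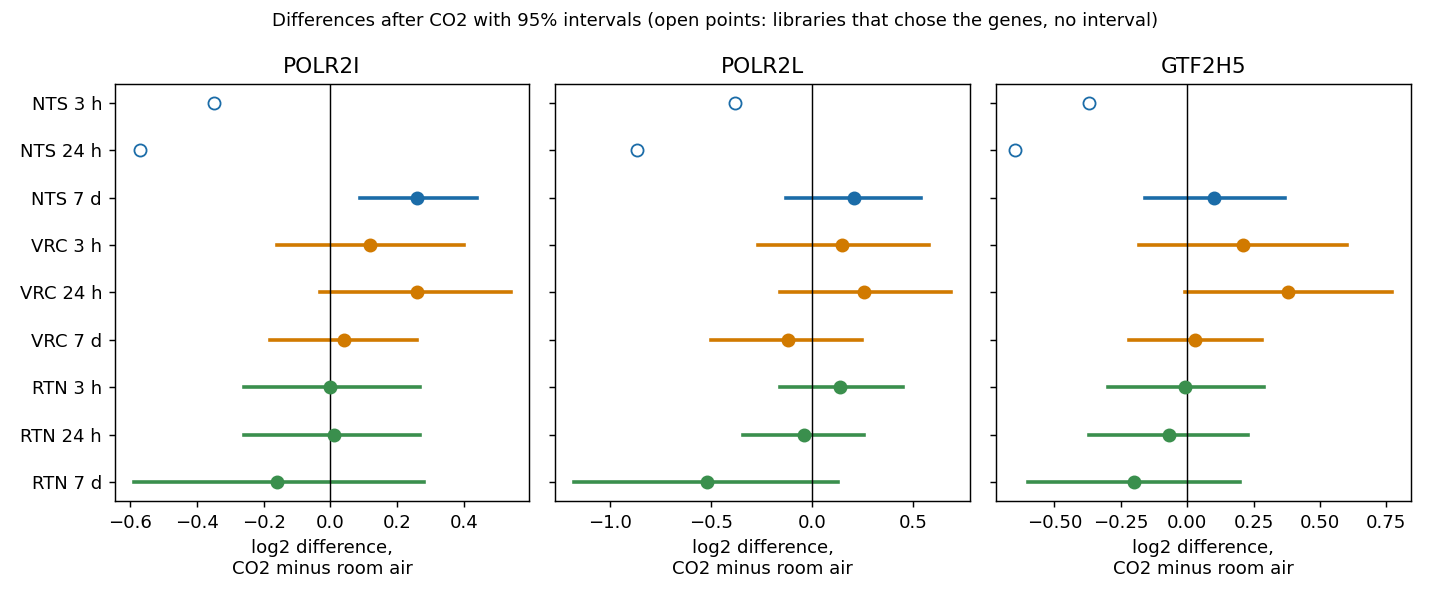
Log2 difference between CO2 and room air for each gene at each site and time, with 95% intervals as bars. Open points are the NTS comparisons at 3 h and 24 h, whose libraries chose the genes, and carry no interval. The one tested interval that leaves out 0 is that of POLR2I in the NTS at 7 d (0.09 to 0.44).

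Whether the 24 h effect was unequal between the VRC and the RTN was tested directly, as neither site chose the genes. The VRC difference minus the RTN difference was 0.24 for POLR2I (95% interval -0.15 to 0.63, edgeR adjusted p = 0.889), 0.29 for POLR2L (-0.25 to 0.83, edgeR adjusted p = 0.915) and 0.44 for GTF2H5 (-0.06 to 0.95, edgeR adjusted p = 0.732). No member passed, while 160 of 16004 genes did (1.0%). The NTS was left out of this test because its libraries chose the genes, so a difference between the NTS and the other sites is a description.

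In goats kept in room air for 7 d, no difference between sites passed the test for these genes. POLR2I averaged 49.3 ± 4.29 CPM in the NTS, 46.8 ± 6.3 CPM in the VRC and 49.2 ± 19.6 CPM in the RTN (SD, n = 6 each). POLR2L averaged 54.9 ± 13.0, 57.8 ± 17.5 and 60.4 ± 39.2 CPM and GTF2H5 43.6 ± 7.45, 40.8 ± 7.67 and 42.7 ± 15.4 CPM in the same order. The RTN means held the high library 6, and without it they were 41.5 CPM for POLR2I, 44.6 CPM for POLR2L and 37.2 CPM for GTF2H5. The NTS mean of POLR2L held library 3, at 80.4 CPM, and was 49.7 CPM without it. Site differences were not fitted without these libraries. All 9 differences between sites lay between -0.15 and 0.09 on the log2 scale, with edgeR adjusted p-values of 0.826 to 0.997. The widest intervals were those of POLR2L. They were -0.70 to 0.53 between NTS and VRC, -0.76 to 0.47 between NTS and RTN and -0.68 to 0.55 between VRC and RTN. Site differences within these ranges are not excluded. Of 15591 genes, 8.72% were called between NTS and VRC, 8.27% between NTS and RTN and 4.52% between VRC and RTN. With the replicate number as a block, 16.8% were called between NTS and VRC, and still no member.

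Over the 15 groups, which mix the batches, the lowest mean of all 3 genes was that of the NTS after 24 h of CO2 and the highest that of NTS room air of 24 h. The highest place rested on room-air library 6: without it the NTS room-air means were 54.1 CPM for POLR2I, 66.5 CPM for POLR2L and 41.8 CPM for GTF2H5, below the means that come next in the order. Above the NTS of 24 h CO2, the next lowest mean was that of the RTN after 7 d of CO2 for POLR2I (44.2 CPM) and POLR2L (42.1 CPM), and that of VRC room air of 24 h for GTF2H5 (36.3 CPM). Below the NTS room air of 24 h, the next highest was the NTS after 7 d of CO2 for POLR2I (59.2 CPM) and GTF2H5 (46.9 CPM), and the RTN after 3 h of CO2 for POLR2L (75.0 CPM). Neighbours in these orders mostly lay closer than 1 SD of either group. The exceptions were the step up to the NTS after 7 d of CO2, from the VRC after 24 h of CO2, for POLR2I, and the step up to the VRC after 7 d of CO2, from the RTN after 7 d of CO2, for POLR2L, and GTF2H5 had 0 such steps. On the log2 scale the SD within groups was 0.24 for POLR2I, 0.38 for POLR2L and 0.30 for GTF2H5, while the SD of the 15 group means was 0.15, 0.27 and 0.18. Single libraries ranged over 2.77-fold for POLR2I, 4.71-fold for POLR2L and 3.52-fold for GTF2H5.

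The 3 transcripts went up and down together from library to library. Over 90 libraries the Pearson correlation of log2 CPM was 0.83 between POLR2I and POLR2L, 0.80 between POLR2I and GTF2H5 and 0.73 between POLR2L and GTF2H5. After the group means were taken away, the correlations were 0.83, 0.77 and 0.72, close to those of the levels. Within the first batch they were 0.82, 0.81 and 0.70, and within the second 0.86, 0.70 and 0.76. These are descriptions: each pair of values comes from 1 library with its depth and normalisation, and the libraries of a goat are not independent. Ranked by correlation with POLR2I among 16629 genes, POLR2L was at place 49 and GTF2H5 at place 85, so many other genes were closer to POLR2I than its partners were. Of all genes, 88 (0.529%) had a correlation over 0.8 with POLR2I, 127 (0.764%) with POLR2L and 17 (0.102%) with GTF2H5.

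**Figure D2:**
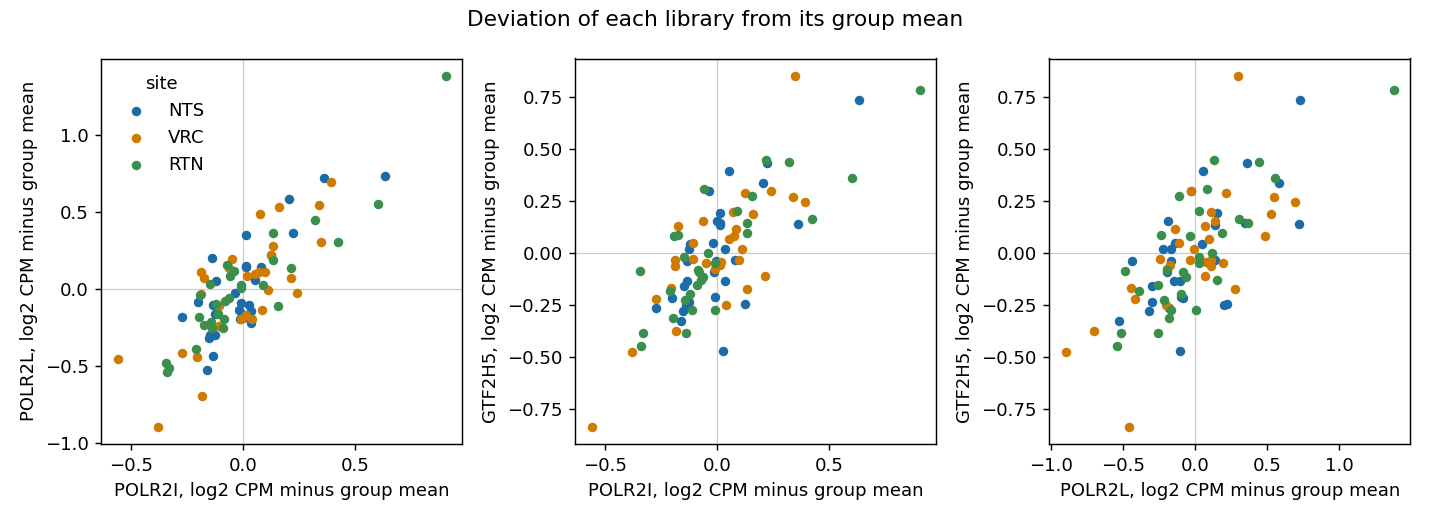
Deviation of each of the 90 libraries from its group mean, in log2 CPM, for POLR2L against POLR2I, GTF2H5 against POLR2I and GTF2H5 against POLR2L, coloured by site. Points of all 3 sites rise together in each panel, with correlations of 0.83 for POLR2L with POLR2I, 0.77 for GTF2H5 with POLR2I and 0.72 for GTF2H5 with POLR2L.

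Among the 234 other symbols that could be ranked, those most like POLR2I over the 90 libraries were NDUFA13 (r = 0.91), NDUFA2 (0.88) and NDUFS5 (0.87), subunits of respiratory complex I, with TOMM7 (0.89), of the mitochondrial import channel, and ROMO1 (0.88), a small mitochondrial membrane protein. Among those most like POLR2L were the copper chaperone COX17, the ribosomal proteins RPL36 and RPLP2, and ROMO1 (each 0.93). GTF2H5 was most like TOMM7 (0.85), the myosin MYO1G and ROMO1 (each 0.84), and MICOS10, of the mitochondrial inner membrane, and NDUFA2 (each 0.83). Among the same symbols, COX1 was the least like all 3, at -0.55 for POLR2I, -0.60 for POLR2L and -0.45 for GTF2H5. With the group means taken away, EFCAB14 was the least like POLR2I (-0.57) and GTF2H5 (-0.47), and COX1 the least like POLR2L (-0.64). All these symbols come from the authors' tables of these libraries, so genes outside them could not be named.

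The ribosomal protein and respiratory chain genes of those tables were set beside the 3 genes at each site and time, as a description. The respiratory chain genes were taken by the name stems NDUF, UQCR and COX. They therefore include the copper chaperone COX17, which is not a subunit of the chain, and COX1, which mitochondrial DNA encodes. In the NTS at 24 h the median log2 difference was -0.71 over 13 ribosomal protein genes and -0.55 over 12 respiratory chain genes, beside -0.57, -0.87 and -0.65 for POLR2I, POLR2L and GTF2H5. All 13 ribosomal protein genes and 11 of the 12 respiratory chain genes were below 0 there, the exception, at 1.71, being COX1. At 3 h it was -0.45 and -0.37 in the NTS, beside -0.35, -0.38 and -0.37. In the VRC at 24 h it was 0.36 and 0.28, beside 0.26, 0.26 and 0.38, and 13 of 13 ribosomal protein and 11 of 12 respiratory chain genes were above 0, with COX1 at -1.81. In the VRC at 3 h it was 0.18 and 0.19, beside 0.12, 0.15 and 0.21. In the VRC at 7 d it was -0.11 and 0.01, beside 0.04, -0.12 and 0.03. In the RTN at 3 h it was 0.01 and 0.04, beside 0.00, 0.14 and -0.01. In the RTN at 24 h it was -0.06 and -0.11, beside 0.01, -0.04 and -0.07, and at 7 d -0.26 and -0.25, where the members were at -0.16, -0.52 and -0.20. In the NTS at 7 d it was 0.15 and 0.17, beside 0.26, 0.21 and 0.10. The ribosomal protein and respiratory chain genes have symbols only because the authors' tables of these libraries list them. Their values are therefore no independent evidence of a direction, and they were compared over the same libraries as the members.

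**Figure D3:**
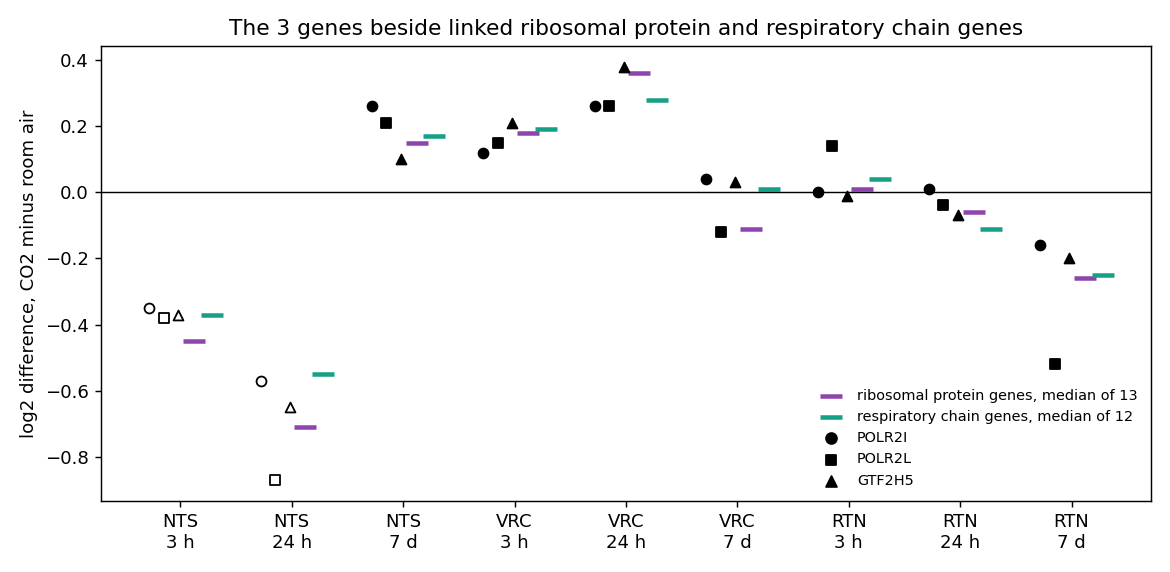
Log2 difference between CO2 and room air for POLR2I, POLR2L and GTF2H5 (points; open where the libraries chose the genes) beside the median of 13 ribosomal protein genes and 12 respiratory chain genes (bars). The 12 were taken by name stem and include the copper chaperone COX17. In the NTS at 24 h the bars are at -0.71 and -0.55, and in the VRC at 24 h at 0.36 and 0.28.

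The genes also differed among themselves. Within a library, the log2 ratio of POLR2L to POLR2I was -0.01 ± 0.22 in the NTS after 24 h of CO2 and 0.32 ± 0.13 in NTS room air (SD, n = 6 each), so POLR2L was further below its room-air level than POLR2I was. These libraries chose the genes, and the gap was not tested. A ratio near 0 was not particular to them: it was -0.07 ± 0.16 in the RTN and 0.08 ± 0.23 in the NTS after 7 d of CO2. The highest mean ratio was 0.54 ± 0.09, in the RTN after 3 h of CO2. The ratio of GTF2H5 to POLR2I was -0.43 ± 0.20 in the NTS after 24 h of CO2 and -0.35 ± 0.06 in NTS room air, a gap within the SD of the CO2 libraries. Deviations from the group mean at 1 site and another, matched by replicate number within an exposure, correlated at 0.35 to 0.46 for GTF2H5 over 30 numbers. The same figure was 0.12 to 0.25 for POLR2I and -0.06 to 0.09 for POLR2L.

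In all, 33 tests of a member were made outside the NTS comparisons that chose the genes, over 11 comparisons, and 0 had an adjusted p at or under 0.05. Of all genes, 0.0% to 0.817% were called in the CO2 comparisons among them. The share was 1.0% for the VRC minus the RTN effect and 4.52% to 8.72% between sites. With shares this low, the absence of a call says little about the 3 genes. Of the 137 genes in 7 lists of RNA polymerase II subunits, TFIIH subunits, other general transcription factors, elongation factors, the mediator, RNA polymerases I and III and nucleotide excision repair, 3 had a symbol, and they are the 3 members. The other 134 were not analysed here, so whether the rest of the machinery had the same levels cannot be read from these values.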

How the data were processed

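Total RNA was turned into cDNA with the SMART-Seq v4 kit and into libraries with Nextera XT, per the labels' protocols. Per the submitters' processing notes, the tools were edgeR 4.6, featureCounts 2.0.6, STAR 2.7.10b and fastp 0.24.0. The build of the goat genome is not given in the sources used here. Raw counts, whole numbers per Ensembl gene, were deposited for 90 libraries, and 0 columns of that table were left out. The authors' deposited gene tables hold log2 fold changes and log2 mean abundances, a likelihood ratio, which is a score, and p-values (PValue and FDR), per the file headers.

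Symbols exist only in those tables. A likelihood ratio fit over all libraries (filterByExpr minimum count 5) kept 17730 genes, and 341 of 342 deposited entries matched exactly 1 gene by mean abundance within 1e-06. The members, lists and tests were chosen with earlier results of these data known.

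Tests used edgeR 4.0.16 in R 4.3.3: TMM factors, filterByExpr, glmQLFit (legacy=FALSE, robust=TRUE), glmQLFTest, and Benjamini-Hochberg adjustment over all genes at 0.05. First-batch comparisons used the 18 libraries of the site and second-batch comparisons its 12. The test was checked on simulated counts. Intervals use the fit's SE and cover 95%. Correlations used log2 CPM with a prior count of 2.

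Other settings tried were RLE factors, no filter, DESeq2 1.42.0, the compared groups only, no library under 10 M counts, the fit over 90 libraries, a replicate block and leaving out each library. After the data were seen, a fit without the 5 NTS libraries apart was added. The 3 genes were named in every comparison, with the 5 symbols most correlated to each, of which 1 is not reported here; promoter motifs in the plan were not searched. The labels do not say that a replicate number is 1 goat, but residuals of the same number at another site correlated over 0.1 in 86 of 90 pairs (median 0.391), in all 6 pairs for NTS and VRC in 7 d room air, and in all 6 for NTS room air and 3 h CO2, which are different goats. The p-values of the CO2 comparisons within a site measure the spread between goats within a batch. P-values between sites, and those of the VRC minus the RTN effect, come from main fits that took same-numbered libraries as independent. The main CO2 fits within a site also took same-numbered libraries, of different goats, as independent. What such libraries share was left out of all these fits.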

Additional observations from a re-analysis of the deposited data

Results flagged for a closer look

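In 45 groups of 6 libraries, 9 had a highest library whose gap to the next, over the range of the group, was above Dixon's limit of 0.625. For normally distributed values chance alone would give about 1 in 20 groups, or 2.25. The ratios were taken on CPM and not on log2 CPM, and the 9 come from 5 libraries, so they are not independent. The count of 9 can therefore not be judged against 2.25. NTS room-air library 6 of 24 h was far above its group in all 3 genes, with 91.2 CPM of POLR2I (others 48.7 to 58.6), 122.0 CPM of POLR2L (others 64.1 to 69.3) and 77.2 CPM of GTF2H5 (others 38.5 to 45.1). RTN room-air library 6 of 7 d was far above its group in POLR2I, at 87.4 CPM (others 36.9 to 52.0), and in POLR2L, at 139.5 CPM (others 36.8 to 52.1). NTS library 5 of 24 h CO2 was high in POLR2I, at 51.2 CPM (others 36 to 41.5), and in POLR2L, at 65.7 CPM (others 31.8 to 43.9). RTN library 2 of 3 h CO2 was high in POLR2I, at 76.7 CPM (others 39.8 to 50.3). NTS room-air library 3 of 7 d was high in POLR2L, at 80.4 CPM (others 46.0 to 55.8).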

How the results depend on the processing

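No tested member value passed 0.05 under any of 186 alternative settings or 252 values with a library left out (lowest adjusted p 0.125), and 5 settings and 28 values with a library left out changed sign. With the replicate block, POLR2I and GTF2H5 in the RTN at 3 h became -0.0046 and 0.01, POLR2I between NTS and RTN 0.05, and POLR2L between VRC and RTN 0.02; the fit over 90 libraries gave POLR2I between NTS and RTN as 0.0021. The cause was not tested.

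Counts of called genes moved more. DESeq2 called 13 in the NTS at 3 h, 187 at 24 h and 70 at 7 d, 136 in the VRC at 3 h and 276 at 24 h, 17, 11 and 4 in the RTN at 3 h, 24 h and 7 d, and 1127 between VRC and RTN. The likelihood ratio fit over 90 libraries called 11, 250 and 34 in the NTS in the same order, 15 in the VRC at 3 h and 100 for the VRC minus the RTN effect. The replicate block gave 3, 13 and 0 in the NTS, 95 in the VRC at 3 h, and 2625, 2371 and 1979 for NTS against VRC, NTS against RTN and VRC against RTN, where the main counts were 1359, 1289 and 704; it changed no call of a member. With the compared groups only, 263 were called in the VRC at 24 h and 0 in the RTN at 3 h, and without libraries under 10 M counts 52 in the VRC at 24 h. Without the 5 NTS libraries apart, 5 were called at 3 h and 148 at 24 h.

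Leaving out each library in turn gave 0 to 4 called genes in the NTS at 3 h, 0 to 114 at 24 h (114 without CO2 library 5, 72 without room-air library 5) and 0 to 3 at 7 d, 2 to 180 in the VRC at 3 h (180 without CO2 library 3, 78 without room-air library 5), 18 to 126 at 24 h (18 without CO2 library 1) and 0 to 2 in the RTN at 3 h. Ranges of the log2 difference that crossed 0 were, in the VRC at 3 h, -0.02 to 0.26 for POLR2L and -0.01 to 0.35 for GTF2H5, and at 7 d -0.02 to 0.08 for POLR2I and -0.05 to 0.09 for GTF2H5. In the RTN they were -0.15 to 0.07 for POLR2I and -0.09 to 0.09 for GTF2H5 at 3 h, and -0.04 to 0.08 for POLR2I, -0.11 to 0.06 for POLR2L and -0.17 to 0.03 for GTF2H5 at 24 h. At 7 d in the RTN they were -0.25 to 0.09 for POLR2I and -0.29 to 0.00086 for GTF2H5, both upper ends being without room-air library 6.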
